A study of Mus musculus with 20 samples.

Results

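The genes described here are 32 genes of lymphocytes and lymphoid tissue, among the 24062 genes counted in mouse pituitary and in iWAT, the white fat pad under the skin of the groin (inguinal white adipose tissue). They were chosen by symbol, from a list of B cell, T cell and lymphoid chemokine genes, and all 32 were found in the count files. By role they fall into 10 B cell genes, 13 T cell genes, 5 genes of lymphocyte homing and lymphoid cytokines, and 4 genes of leukocytes in general. The study compared male C57BL/6N mice on a chow diet, labelled Klf14 knockout (KO) or wild type (WT), with 5 libraries of poly(A) RNA for each genotype in each tissue. Libraries labelled KO carry numbers 31, 32, 35, 50 and 66, and those labelled WT carry 33, 34, 48, 49 and 56. The ages given are 21 weeks for numbers 31 to 35 and 66, 19 weeks for 48, 49 and 50, and 18 weeks for 56. By the series title the deletion is germline, and the labels used here name no promoter, Cre or clone. No label says that a number is 1 animal in both tissues or that libraries come from separate animals, so the spread behind every p-value is that between libraries and may be technical.

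B cells recognise antigen through a surface antibody whose signal is passed inside by CD79A and CD79B, and T cells through a receptor that signals through the CD3 chains. In a lymph node both kinds of cell are kept apart: CXCL13, made by follicular stroma, draws CXCR5-bearing B cells into follicles, and CCL19 and CCL21 draw CCR7-bearing T cells into the surrounding zone. The mouse inguinal lymph node lies inside the inguinal fat pad, so an iWAT dissection can hold all, some or none of it. The pituitary holds no lymph node.

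The sequences below are the 250 bases before a RefSeq start of each of 5 members (build GRCm38.p6, 5′ to 3′ on the gene's strand), shown because the results turn on these members. Cd3g and Cd3d are a head-to-head pair of CD3 chains. Across the iWAT libraries compared below, both had a steadier ratio to Cd3e than to Cd79a. Most of the other T cell genes, Lck among them, kept a steadier ratio to Cd3e than this pair did. Lck and Cr2 kept counts in the pituitary, and Cxcl13 was the member that least followed the others. Each of these windows overlaps 0 GENCODE vM21 exons. Capitals mark the core RUNX motif TGTGGTT.
Cd3g (chr9:44980432-44980681, minus strand): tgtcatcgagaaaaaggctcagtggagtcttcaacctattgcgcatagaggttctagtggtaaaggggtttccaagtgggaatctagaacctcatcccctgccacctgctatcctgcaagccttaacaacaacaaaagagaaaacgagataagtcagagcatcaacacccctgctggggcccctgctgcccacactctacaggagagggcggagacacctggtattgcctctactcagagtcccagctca
Cd3d (chr9:44981536-44981785, plus strand): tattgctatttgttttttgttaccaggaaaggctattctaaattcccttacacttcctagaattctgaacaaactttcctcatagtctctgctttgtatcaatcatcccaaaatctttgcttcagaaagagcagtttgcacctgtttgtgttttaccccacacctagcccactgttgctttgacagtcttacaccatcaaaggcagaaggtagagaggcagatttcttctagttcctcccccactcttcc
Lck (chr4:129573642-129573891, minus strand): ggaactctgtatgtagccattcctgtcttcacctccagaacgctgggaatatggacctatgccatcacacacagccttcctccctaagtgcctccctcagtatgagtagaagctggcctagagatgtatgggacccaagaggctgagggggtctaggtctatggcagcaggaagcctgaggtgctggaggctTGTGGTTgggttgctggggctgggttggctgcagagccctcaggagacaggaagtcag
Cr2 (chr1:195176720-195176969, minus strand): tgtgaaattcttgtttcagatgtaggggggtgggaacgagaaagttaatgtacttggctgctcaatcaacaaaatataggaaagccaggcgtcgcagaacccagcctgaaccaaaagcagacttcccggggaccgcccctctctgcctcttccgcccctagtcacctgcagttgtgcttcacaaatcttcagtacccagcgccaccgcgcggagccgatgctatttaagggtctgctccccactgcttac
Cxcl13 (chr5:95956689-95956938, plus strand): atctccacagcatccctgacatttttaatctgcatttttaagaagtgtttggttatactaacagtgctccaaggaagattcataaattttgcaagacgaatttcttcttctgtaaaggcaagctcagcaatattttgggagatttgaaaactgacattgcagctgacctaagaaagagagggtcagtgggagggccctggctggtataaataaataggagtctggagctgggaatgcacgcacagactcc

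A RefSeq promoter window of 250 bases before to 50 after a start was given for 22 of the 32 members. Searched on both strands, TGTGGTT was present in windows of 2 of these 22 (Il7r and Lck), against 6.09% of 27025 genes. The octamer ATGCAAAT was in windows of 0 of 22, against 1.97% of genes, and the ETS motif CCGGAAGT in those of 1 (Tcf7), against 4.31%. The EBF palindrome was in those of 1 (Cd22), against 1.06%. Of the 4 motifs, only RUNX is matched in the sequences printed here, in Lck. In Lck the RUNX letters lie 58 to 52 bases before the RefSeq start at which the printed window ends. The 250 bases before another RefSeq start of Lck (chr4:129558373-129558622), not printed, held none of the 4 motifs and overlap 1 GENCODE exon. These are matches of letters and not measured sites.

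Total counts were 14799718 to 18689881 per iWAT library and 13591695 to 17598504 per pituitary library. Levels are CPM, a gene's counts per 1000000 counts of its library, on library sizes scaled by TMM over all 20 libraries. By total counts before that scaling, 3 counts, the limit that a count of 0 allows, correspond to 0.221 CPM in the shallowest library. Intervals cover counting error only, and reads carry no molecular identifiers. The tissue labels matched their markers: Adipoq, the adipocyte hormone, was at 667 to 2347 CPM in iWAT and at most 0.0623 in the pituitary. Growth hormone (Gh) was at 1.03 CPM or less in 9 iWAT libraries and at 95.9 in labelled KO 32. Klf14 went against the genotype labels in the pituitary, at 36.1, 33.0, 31.0, 30.0 and 28.9 CPM in the labelled KO libraries and 17.8, 13.3, 15.2, 16.6 and 16.4 CPM in the labelled WT libraries. In iWAT it was at or below 3.17 CPM in all 10 libraries. The genotype is therefore written as labelled throughout, and directions of a genotype difference hold for the labels only. The iWAT library labelled KO 50 stood apart from the other 9 in the genes described here, and results that rest on it are given with and without it.

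In iWAT the 32 genes together made up 0.130% to 0.497% of all counts in 9 libraries, and 0.0216% in labelled KO 50 (95% Wilson interval 0.0209 to 0.0223%). Their summed level in labelled KO libraries 31, 32, 35, 50 and 66 was 4796, 2364, 4156, 264, 3108 CPM in that order. In those labelled WT (33, 34, 48, 49 and 56) it was 2519, 3277, 4732, 1435, 3751 CPM. Both genotypes span the range, and the ranges overlap. Among the 9 libraries other than KO 50 the sum varied 3.34-fold, with labelled WT 49 lowest and labelled KO 31 highest. Labelled KO 50 was a further 5.44-fold below WT 49. In the pituitary the sum was 62.3 to 78.4 CPM in 9 libraries and 126 CPM in labelled KO 50. By role, as the plot of summed levels shows, number 50 was the lowest of 10 in iWAT for all 4 sums and the highest of 10 in the pituitary for 3; the pituitary B cell sum was highest in labelled KO 66, at 32.9 CPM against 30.0 CPM in KO 50. In bulk tissue, fewer cells of a type and less RNA per cell cannot be told apart.

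**Figure D1:**
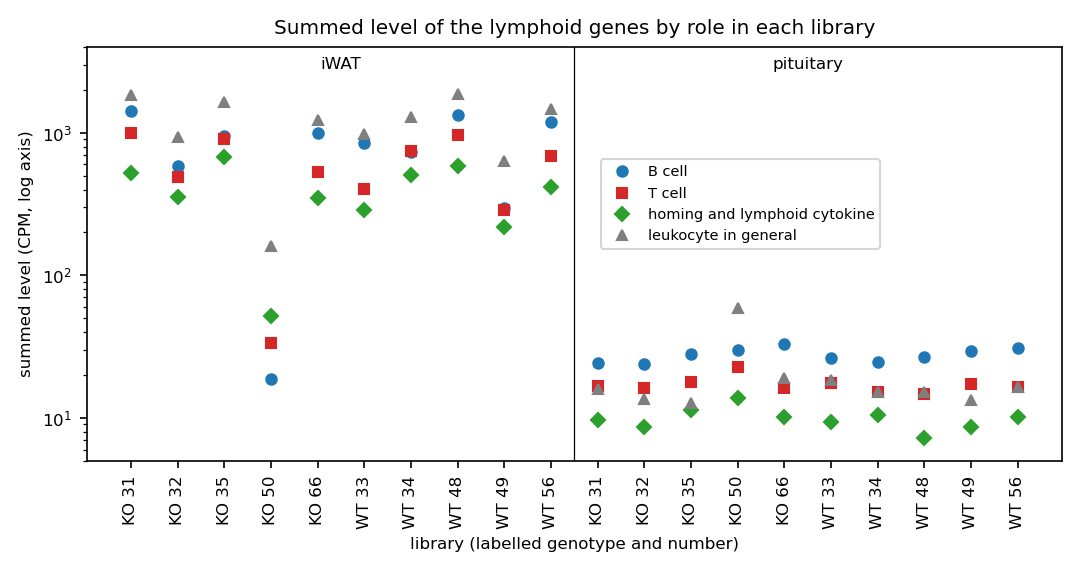
Summed CPM (log axis) of the B cell (10 genes), T cell (13), homing and cytokine (5) and general leukocyte (4) genes in each of the 20 libraries, 1 point per library and role. In iWAT all 4 sums were lowest in labelled KO 50, where the B cell sum was 18.6 CPM against 299 to 1417 CPM in the others.

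The 10 B cell genes were present in 9 iWAT libraries and close to absent in labelled KO 50. Cd79a (chr7:24897511-24902197 on the mm10 build, plus strand, 5 counted exons), the signalling chain of the B cell receptor, was at 164, 62.7, 100.3, 1.43 and 100.2 CPM in labelled KO libraries 31, 32, 35, 50 and 66. In those labelled WT (33, 34, 48, 49 and 56) it was at 87.6, 80.6, 159, 34.3 and 132 CPM. The highest and the next highest values came from opposite genotypes (KO 31 and WT 48), and only KO 50 fell outside the range of the labelled WT libraries at the low end. Cr2 (chr1:195136811-195176715, minus strand, 19 counted exons), the complement receptor CD21 of mature B cells and follicular dendritic cells, was at 169, 88.6, 125, 5.12 and 152 CPM in the labelled KO libraries and 129, 98.8, 145, 31.9 and 142 CPM in those labelled WT. It was again low in WT 49 and lowest in KO 50. The other 8 are Ms4a1 (CD20), Cd79b, the inhibitory receptor Cd22, the low-affinity IgE receptor Fcer2a, the B lineage factor Pax5, the Src-family kinase Blk, the Fc receptor-like gene Fcrla and the follicle-homing receptor Cxcr5. Their median levels over the 9 libraries, per kilobase of counted exon, ran from 17.2 CPM per kb for Cxcr5 to 102 CPM per kb for Cd79b, and each gene varied 3.93-fold to 6.72-fold among them.

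T cell genes showed the same 9 libraries against 1. Cd3e (chr9:44998743-45009590, minus strand, 8 counted exons), a signalling chain of the T cell receptor complex, was at 50.0, 26.3, 46.9, 1.81 and 23.6 CPM in the labelled KO libraries and 19.8, 36.1, 49.7, 11.6 and 26.9 CPM in those labelled WT. Here KO 31, WT 48 and KO 35 were high, and KO 32 lay above KO 66 and WT 33, whereas for Cd79a it lay below both. Cd8a (chr6:71373427-71379171, plus strand, 5 counted exons), the coreceptor of cytotoxic T cells, was at 107, 58.3, 131, 1.73 and 57.0 CPM in the labelled KO libraries and 48.6, 90.8, 113, 35.0 and 76.1 CPM in those labelled WT. Its highest library was KO 35, which was only mid-range for Cd79a. Cd4, the helper T cell coreceptor, spanned 45.6 to 118 CPM over the 9 libraries and was the least variable T cell gene among them, at 2.58-fold. Tcf7, a transcription factor of naive and memory T cells, spanned 30.7 to 161 CPM and was the most variable, at 5.24-fold. The remaining 9 were the CD3 chains Cd3d and Cd3g, the adhesion receptor Cd2, Cd8b1, the receptors Cd5 and Cd6, the costimulatory receptor Cd27 and the kinases Lck and Zap70. Their median levels over the 9 libraries ran from 12.2 CPM per kb for Zap70 to 45.5 CPM per kb for Cd2. Cd3g and Cd3d lie 1.35 kb apart on chromosome 9 with Cd3e 11.7 kb beyond, and Cd8b1 and Cd8a lie 36.0 kb apart on chromosome 6, with 0 genes between the members of each pair.

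Of the 5 homing and cytokine genes, 4 were under 10% of the other libraries' median in labelled KO 50 and Cxcl13 was not. Ccr7 (chr11:99144199-99155077, minus strand, 3 counted exons), the receptor that brings naive T cells and dendritic cells into lymph nodes, was at 135, 109, 157, 2.03 and 76.4 CPM in the labelled KO libraries and 66.2, 113, 141, 47.1 and 94.5 CPM in those labelled WT. Il7r, the receptor for the T cell survival cytokine IL-7, reached 339.8 CPM in labelled KO 35, and Ltb, which encodes lymphotoxin beta, peaked at 114 CPM in labelled KO 31. Ccl19 (chr4:42754525-42756518, minus strand), a ligand of CCR7 made by T zone stroma, was at 32.6, 35.0, 49.4, 2.86 and 30.2 CPM in the labelled KO libraries and 23.8, 49.4, 39.2, 16.9 and 26.5 CPM in those labelled WT. Its reads were also counted over a copy on an unplaced chromosome 4 sequence, so its level is uncertain. Cxcl13 (chr5:95956939-95961068, plus strand, 4 counted exons), the B cell chemokine of follicles, was at 63.3, 74.7, 58.7, 39.8 and 51.2 CPM in the labelled KO libraries and 64.4, 45.9, 69.1, 47.6 and 61.9 CPM in those labelled WT. It varied only 1.63-fold among the 9, the smallest spread of the 32, and in KO 50 it was still at 64.3% of their median.

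Of the 4 general leukocyte genes, 3 were the most abundant of the 32 per kilobase. Ptprc (chr1:138062859-138175305, minus strand, 33 counted exons) encodes CD45, the phosphatase on all leukocytes, and was at 1052, 528, 984, 94.4 and 684 CPM in the labelled KO libraries and 553, 747, 1053, 373 and 808 CPM in those labelled WT. Coro1a, an actin regulator of leukocytes, spanned 173 to 534 CPM over the 9 libraries, Cd52 spanned 51.2 to 145 CPM and the tetraspanin Cd37 34.2 to 139 CPM. Per kilobase of counted exon, the median level over the 9 libraries was 231 CPM per kb for Coro1a, 196 for Cd52 and 132 for Ptprc. On that scale Cd79b (102) and Cd79a (75.5) led the lymphocyte genes, while Cd6 (15.2) and Zap70 (12.2) were lowest. Neighbours in this order had ranges over libraries that overlapped.

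Labelled KO 50 was the lowest of the 10 iWAT libraries for 32 of the 32 genes, against 26.0% of the 15501 genes with a mean of at least 1 CPM. How low it was differed by role. The B cell sum in KO 50 was 1.97% of the median of the other 9 libraries, the T cell sum 4.88%, the homing and cytokine sum 12.5% and the general leukocyte sum 12.4%. Single B cell genes were at 0.983 to 4.84% and single T cell genes at 1.69 to 14.7%. Ms4a1 had 16 counts there, 0.983% (95% Poisson interval of its count 0.562 to 1.60%). Cd3d had 6 counts, 1.69% (95% Poisson interval of its count 0.620 to 3.68%). Cd27 had 74 counts and was the least low T cell gene, at 14.7% (95% Poisson interval of its count 11.5 to 18.4%). The plot of KO 50 against the other 9 libraries shows that Cxcl13 lay closest to the range of the others, at 39.8 CPM against a lowest value of 45.9 CPM.

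**Figure D2:**
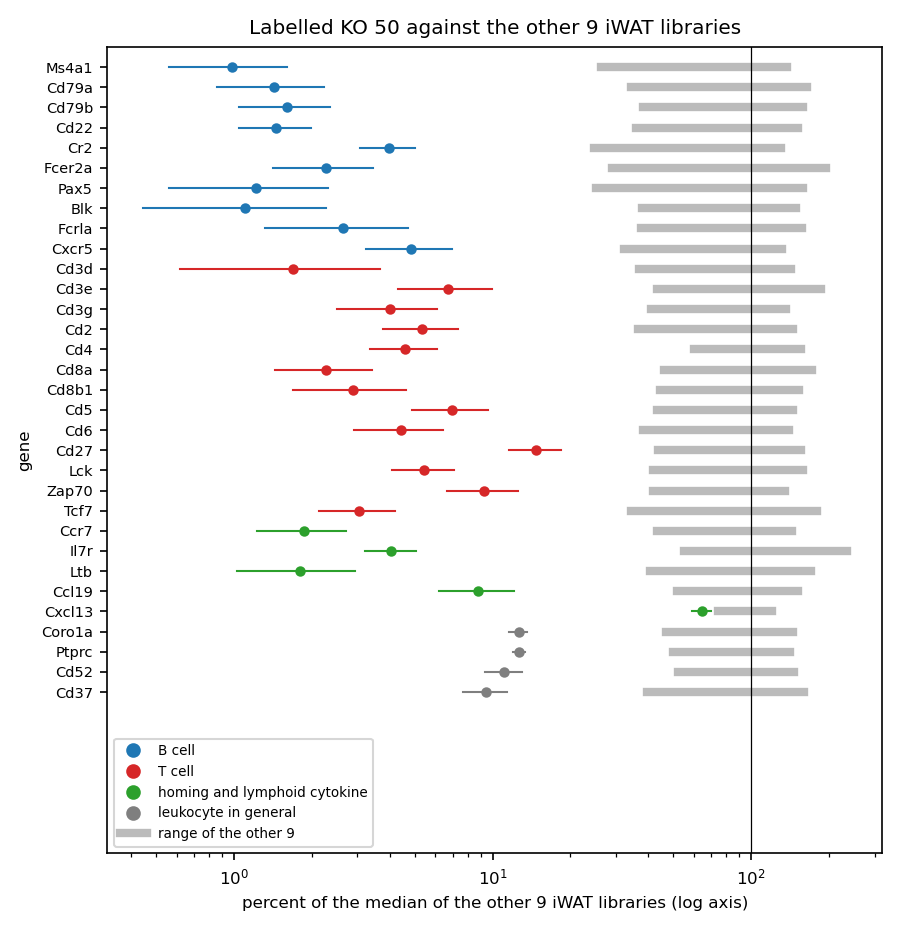
Level of each gene in labelled KO 50 as a percent of the median of the other 9 iWAT libraries (log axis), with 95% Poisson intervals of its count. Grey bars are the range of the other 9. Of the 32 points, 31 lie below 15% (Cd27 is highest of these, at 14.7%) and Cxcl13 lies at 64.3%.

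Most of the lymph node vessel, stroma and further lymphocyte genes that are not among the 32 were also lowest in KO 50. Glycam1, a ligand for L-selectin made by high endothelial venules, was at 0.527 CPM in KO 50 and 17.0 to 55.4 CPM in the other 9. Ccl21a, the second CCR7 ligand, was at 2.86 CPM against 61.1 to 213 CPM, although its exons are shared with near-identical copies and its level is uncertain. KO 50 was the lowest library for 5 of 7 genes of the high endothelial venule list, 9 of 13 of the stroma list, 13 of 14 further B cell genes and 14 of 14 further T cell genes. It was the lowest for 7 of 8 trafficking genes, 7 of 9 NK and cytotoxic cell genes, 4 of 7 lymphatic endothelium genes and 3 of 7 plasma cell genes. Over all genes with a mean of at least 1 CPM that share was 26.0%. The lists were chosen with earlier results of these data known, so these counts are a description only. By summed level, the high endothelial venule list was at 176.7 CPM in KO 50, within the 171.9 to 276.3 CPM of the other 9. The plasma cell list, at 234.7 CPM, was also within their 165.4 to 235.9 CPM. The stroma list, at 1171 CPM, lay below their 1245 to 1774 CPM, and the lymphatic endothelium list, at 136.4 CPM, below 154.1 to 339.6 CPM. The exception among the further B cell genes was Ebf1, at 276 CPM in KO 50 against 186 to 295 CPM. That transcription factor is also expressed by adipocytes and their precursors.

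Other cell types moved with KO 50 as well. The 9 adipocyte genes summed to 33154 CPM in KO 50 and 9391 to 22071 CPM in the other 9, and the 7 red cell and platelet genes to 7785 CPM in KO 50 and 935 to 4032 CPM in the other 9. Hbb-bs alone, an adult beta globin, was at 2779.6 CPM against 296 to 1233 CPM; reads of the globin copies are shared. The 7 skeletal muscle genes summed to 16.7 to 479.8 CPM in the other 9. Their sum in KO 50 was 13.4% of the median of the other 9, but only just below the lowest of them. KO 50 was the lowest library for 2 of these 7 genes. The 9 macrophage genes summed to 1240.1 CPM in KO 50 and 967 to 2071 CPM in the other 9, with KO 50 the lowest for 2 of them, and the 11 dendritic cell and MHC class II genes to 1067 CPM in KO 50 and 2212 to 4547 CPM in the other 9. The macrophage sum in KO 50 thus lay within the range of the other libraries, unlike the lymphocyte sums. The defining lymphocyte markers Cd79a and Cd3d were at 1.43 and 0.452 CPM there. Of the other 9 libraries, labelled WT 49 had the highest adipocyte, red cell and platelet, and macrophage sums. It also had the lowest skeletal muscle and dendritic cell and MHC class II sums. The part of each of these other cell types in the levels of the 32 genes was not tested.

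B cell and T cell genes did not vary in a fixed ratio. B cell genes made up 67.6% (66.9 to 68.2%) of the B and T cell counts in labelled WT 33 and 65.4% (64.8 to 66.0%) in labelled KO 66 (95% Wilson intervals). The share was 49.9% (49.2 to 50.5%) in labelled WT 34 and 51.1% (50.5 to 51.6%) in labelled KO 35, and 35.7% (32.3 to 39.4%) in KO 50. Without KO 50, B over T counts ranged from 0.995 in WT 34 to 2.08 in WT 33, both labelled WT and both of 21 weeks. Within a lineage the genes kept step more closely. Over the 9 libraries, 9 of 9 other B cell genes had a steadier log2 ratio to Cd79a than to Cd3e, with a median SD of 0.161 against 0.476, and 12 of 12 other T cell genes a steadier ratio to Cd3e, with 0.205 against 0.400. Cd22 tracked Cd79a most closely (SD 0.0632) and Lck tracked Cd3e most closely (SD 0.143). Ccr7 was steadier against Cd3e (0.206 against 0.515) and Ltb against Cd79a (0.185 against 0.390). These are descriptions over 9 libraries, with no test.

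**Figure D3:**
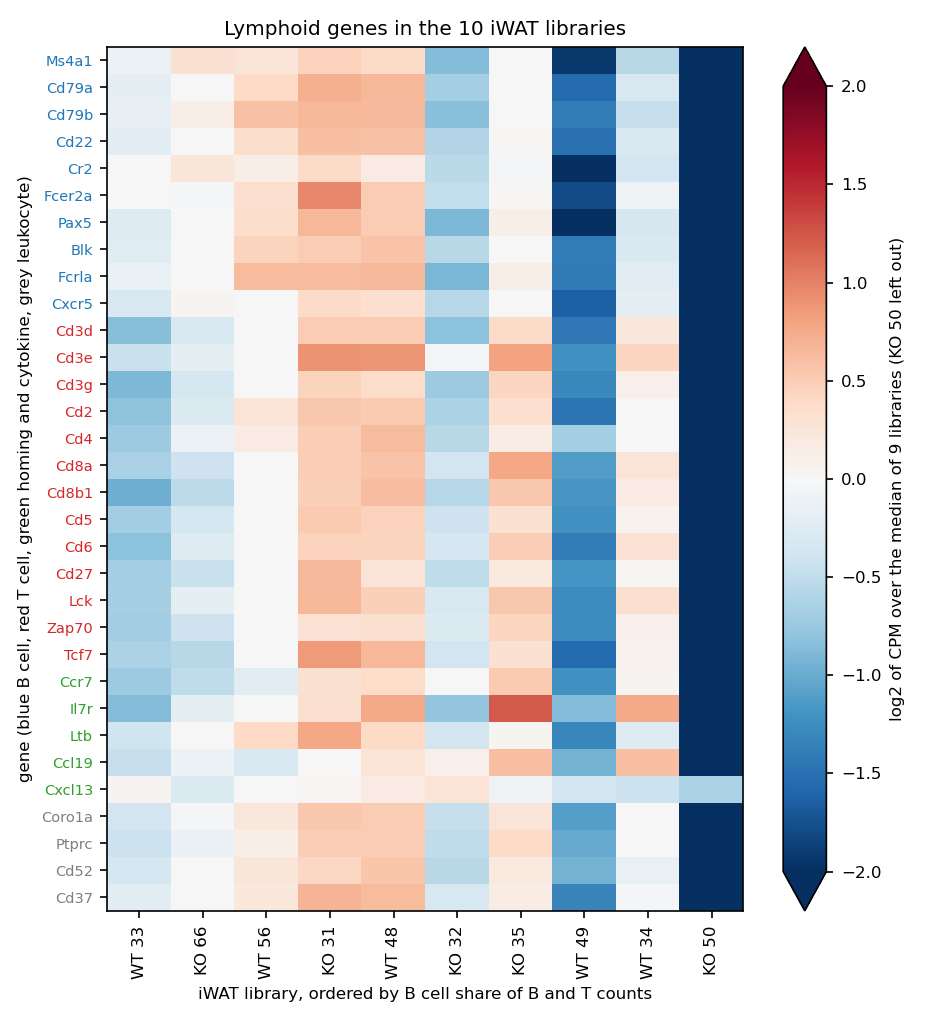
Each of the 32 genes in the 10 iWAT libraries, as log2 of its CPM over its median in the 9 libraries other than KO 50, with the colour scale limited to -2 and 2. Libraries run from the highest (WT 33, 67.6%) to the lowest (KO 50, 35.7%) B cell share of B and T counts, and T cell rows are paler or bluer than B cell rows in WT 33 and redder in KO 35.

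Ratios between genes of T cell subsets also differed between libraries. Per kilobase, the ratio of Cd4 to Cd8a was 0.649 in labelled KO 35 and 1.37 in labelled WT 49, with the other 7 libraries between them, and 2.02 in KO 50, where Cd4 had 46 counts and Cd8a 23. Cd8a over Cd8b1, the subunits of 1 heterodimer, stayed within 0.755 to 0.982 over the 9 libraries. Cd79a over Cd79b, the subunits of another, stayed within 0.647 to 0.827. Il7r counts per Cd3e count ranged from 3.19 in KO 32 to 7.24 in KO 35, a 2.27-fold spread, and the log2 ratio of Il7r to Cd3e had an SD of 0.424.

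Labelled KO 66 had the highest levels of some genes of germinal centres, the sites in follicles where activated B cells divide and are selected. Rgs13, a regulator of G protein signalling, was at 7.17 CPM in KO 66 and at most 1.09 CPM in the other 9 libraries, Mef2b at 6.87 against at most 2.61 and Gcsam at 14.3 against at most 9.13 CPM. The proliferation gene Mki67 was also highest in KO 66, at 133 against at most 99.9 CPM, as was the antibody joining chain gene Igj, at 44.4 against at most 34.7 CPM. KO 66 was not highest for Bcl6, the transcription factor of germinal centre B cells, at 48.4 CPM against 66.3 in KO 50, or for the receptor gene S1pr2, at 18.7 CPM against 19.4 in KO 32. Cd79a in KO 66 was mid-range, at 100.2 CPM. Per 1000 B cell counts, KO 66 had 7.18 Rgs13 counts and the median of the others was 0.676. In KO 50 that ratio was 4.05, from 1 Rgs13 count. On that scale Gcsam was at 14.4 in KO 66 and 13.5 in labelled WT 49, and Mki67 was lower in KO 66 (133) than in WT 49 (184). KO 50, with only 247 B cell counts, was highest for Gcsam (76.9) and Mki67 (1628). It was also highest for Mef2b, at 40.5 against 6.88 in KO 66. Among genes of developing lymphocytes, Rag1, which starts antigen receptor rearrangement, was at most 0.788 CPM in iWAT and Dntt at most 5.27 CPM, but Cd1d1, from the same list and also expressed by other cells, was at 57.6 to 219 CPM.

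**Figure D4:**
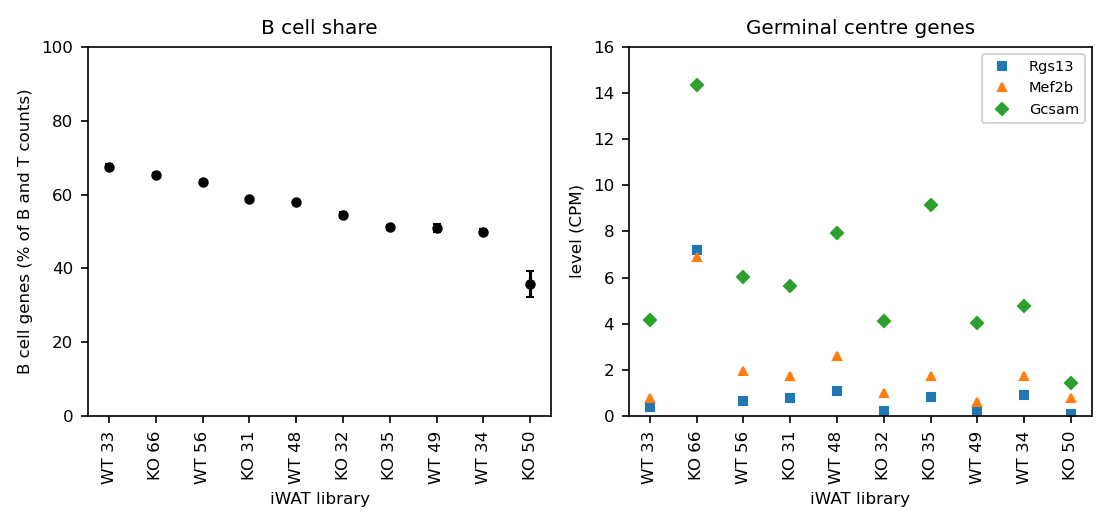
Left, B cell counts as a percent of B and T cell counts in each iWAT library, with 95% Wilson intervals. Right, CPM of 3 germinal centre genes (Rgs13, Mef2b and Gcsam) in the same libraries; labelled KO 66 has the highest value of each, with Rgs13 at 7.17 CPM.

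Outside the 32, the genes whose log2 level was most like the log2 summed level of the members over the 10 iWAT libraries were Sash3, Zfp831, Mthfd1l, Traf3ip3, Tbc1d10c, Slain1, Slc38a1, Acap1, Cyfip2 and Psd4. Their Pearson r was 0.998 to 0.999 over 10 libraries, and 0.989 to 0.997 over the 9 without KO 50. The 10 were taken by rank among 16163 genes with at least 10 counts in at least 5 iWAT libraries, of which 1297 (8.02%) had an r above 0.9; without KO 50, 678 of these still did. The values share library, depth and tissue make-up, so they are a description and carry no p. Of the members, 31 had an r above 0.9 with the sum they belong to, and 26 still did without KO 50. Cxcl13 was lowest, at 0.67 over 10 libraries and 0.34 over 9, followed by Ccl19 at 0.95 and 0.69. Both are chemokines made mainly by stromal cells.

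Whether the labelled genotype changed these genes in iWAT was tested with edgeR's quasi-likelihood test over 16105 genes. None of the 32 members passed an adjusted p of 0.05, and none had an unadjusted p under 0.05. Over all genes 0 passed (0.0%), 89 had an unadjusted p under 0.05, and DESeq2 also called 0. The median log2 fold change of the members, labelled KO over labelled WT, was -0.09 with 3 of 32 above 0, beside a median of -0.0002 over all genes. For Cd79a the group means were 85.8 ± 59.6 CPM in the labelled KO libraries and 98.8 ± 48.4 CPM in those labelled WT (SD, n = 5 each; log2 fold change -0.23, SE 0.79, edgeR adjusted p = 1.0). For Cd3e they were 29.7 ± 19.6 and 28.8 ± 14.7 CPM (log2 fold change 0.02, SE 0.66, edgeR adjusted p = 1.0). The SD was above 50% of the mean for Cd79a in the labelled KO group, and the difference was smaller than the SE for every member printed here.

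For the other members with full statistics the labelled KO and labelled WT means (SD, n = 5 each) were as close. Cr2 was at 108 ± 65.1 and 109 ± 46.9 CPM (log2 fold change -0.04, SE 0.69, edgeR adjusted p = 1.0). Cd8a was at 71.0 ± 50.1 and 72.8 ± 31.6 CPM (log2 fold change -0.06, SE 0.74, edgeR adjusted p = 1.0). Ccr7 was at 95.8 ± 60.4 and 92.5 ± 37.3 CPM (log2 fold change 0.03, SE 0.74, edgeR adjusted p = 1.0). Ccl19 was at 30.0 ± 16.9 and 31.1 ± 13.0 CPM (log2 fold change -0.07, SE 0.56, edgeR adjusted p = 1.0). Cxcl13, the steadiest of the genes, was at 57.6 ± 13.1 and 57.8 ± 10.4 CPM (log2 fold change -0.03, SE 0.18, edgeR adjusted p = 1.0). Ptprc was at 668 ± 386 and 707 ± 258 CPM (log2 fold change -0.11, SE 0.53, edgeR adjusted p = 1.0). The labelled KO and WT libraries did not overlap for 0.0807% of all genes tested and for none of the 32. None of the genes in the further lymphoid and cell type lists was called by edgeR between labelled genotypes in either tissue.

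The direction of the members' median rested on single libraries. Without labelled KO 50 it was 0.19, with 31 of 32 above 0, and without labelled WT 48 it was 0.09, with 27 above 0. With mice of 21 weeks only, 4 labelled KO against 2 labelled WT libraries, it was 0.31, and with age as a covariate it was -0.54 with 0 of 32 above 0. Labelled KO libraries of 21 weeks were 31, 32, 35 and 66 and KO 50 was the only labelled KO library of another age, so age and that library cannot be told apart within the labelled KO group. No member was called in any of these fits; the adjusted p was at least 0.998 throughout.

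Between tissues the 32 genes fall into 16 that passed the low-count filter in the pituitary and 16 that did not. The latter, among them Ms4a1, Cd3d, Cd3e and Ccr7, could enter a fit of both tissues only through iWAT, so their difference is given by level alone: at most 1.58 CPM (Cd37) in any pituitary library and at least 9.88 CPM (Cd3d) in the 9 iWAT libraries other than KO 50, where they were at 0.452 to 8.14 CPM. Of the 16 that passed, 16 were higher in iWAT (edgeR, adjusted p under 0.05, fitted over 17731 genes), against 39.3% of the 16389 genes that passed the same filter. The median log2 difference of the 16 was 5.28, from 2.42 for Cd27 to 7.75 for Cd22, beside -0.06 over those genes. For Cd79a the difference was 5.82 (SE 0.56, edgeR adjusted p = 9.46e-09), and for Ptprc 5.96 (SE 0.41, edgeR adjusted p = 6.59e-11). For Cxcl13 it was 4.17 (SE 0.18, edgeR adjusted p = 8.07e-14). For Cr2 it was only 2.75 (SE 0.39, edgeR adjusted p = 1.99e-06). Every iWAT library lay above every pituitary library for 8 of these 16 genes, against 24.1% of the genes past the filter. The 8 that overlapped were Ccl19, Cd27, Cd79a, Cd79b, Cr2, Fcer2a, Lck and Tcf7, in each case through the low value of iWAT KO 50, and for Ccl19 only against the high value of pituitary KO 50. Without number 50 in both tissues 16 of 16 were separate, against 27.2%. In KO 50 Cr2 and Cd79b were below the lowest pituitary library.

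**Figure D5:**
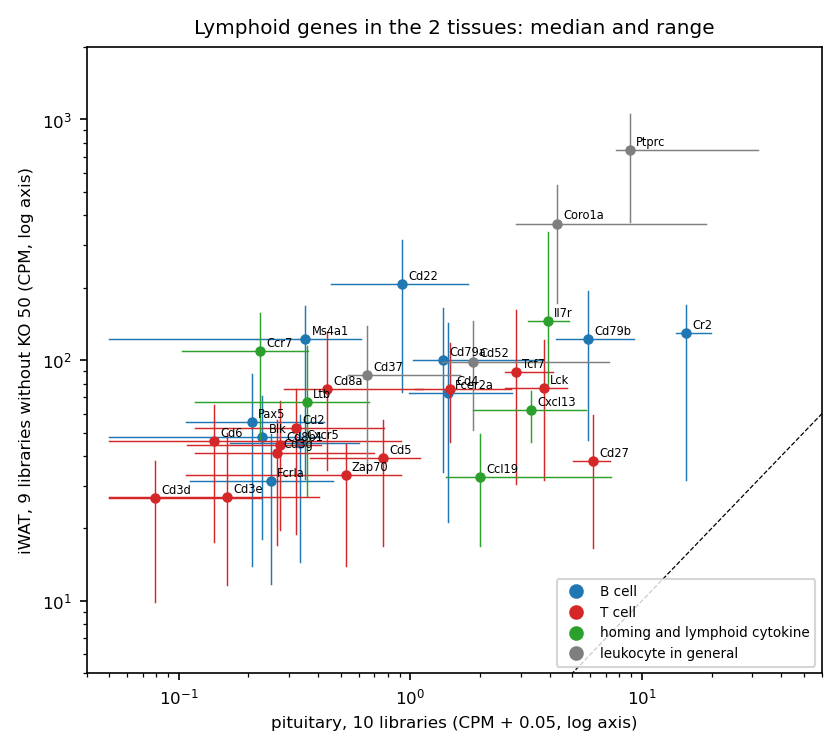
Level of each of the 32 genes in the pituitary (x axis, CPM + 0.05, 10 libraries) and in iWAT (y axis, CPM, 9 libraries without KO 50), both on log axes, with points at medians and lines over the range of libraries. The dashed line marks equal levels: all 32 genes lie above it, with Cr2 and Cd27 nearest to it.

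The pituitary did not hold the 32 genes in the proportions of iWAT. Per kilobase the highest median levels there were those of Cd79b (4.85 CPM per kb), Cd27 (3.87) and Cd52 (3.62), while Cd79a was at 1.01 and Ms4a1 at 0.147 CPM per kb. Cr2 was at 15.0, 14.0, 15.7, 14.0 and 19.9 CPM in the labelled KO libraries and 16.5, 15.3, 14.4, 18.2 and 18.1 CPM in those labelled WT. Its groups overlapped, and no library was near 0. Ms4a1 was at 0.561 CPM or less and Pax5 at 0.374 CPM or less in all 10. Cd79b was at 4.22 to 9.22 CPM and its partner Cd79a at 0.979 to 3.68 CPM. Per kilobase, Cd79a over Cd79b was 0.115 to 0.602 in the pituitary, below the ratio in every iWAT library. Cd79b (chr11:106311341-106314529, minus strand) lies 9.44 kb from Gh (chr11:106300261-106301896) with 0 genes between, and Gh was at 68314 to 114232 CPM in the pituitary. Whether Gh transcription adds to the Cd79b counts was not tested. Among T cell genes Cd27 was at 4.99 to 7.24 CPM, Lck at 2.52 to 4.69 and Tcf7 at 2.51 to 4.07, but Cd3d had 9 counts and Cd3e 22 counts over all 10 libraries together. Cd3d was at 0 counts in 5 of them. Il7r was at 3.16 to 4.78 CPM. The precursor gene Rag1, near 0 in iWAT, was at 7.35 to 15.4 CPM in the pituitary, where the pre-T cell receptor gene Ptcra was at most 0.176 CPM.

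In the pituitary 16 of the 32 genes passed the low-count filter (5 B cell, 5 T cell, 3 homing and cytokine and 3 general leukocyte genes), and none was called between labelled genotypes, against 0.549% of the 16389 genes tested. Lck (chr4:129548344-129573641, minus strand, 13 counted exons), the kinase that starts T cell receptor signalling, came closest. It was at 3.94, 4.32, 4.69, 4.47 and 4.61 CPM in the labelled KO libraries and 3.52, 3.05, 2.52, 2.82 and 2.82 CPM in those labelled WT, and the groups did not overlap, which held for 2.85% of all genes tested. Its log2 fold change was 0.58 (SE 0.13, edgeR adjusted p = 0.0763), and DESeq2 called it with an adjusted p of 0.0365; over all alternatives the adjusted p ran from 0.0365 to 1.0, with a log2 fold change of 0.41 to 0.66. Lck is singled out here after its values were seen. The defining T cell genes Cd3d and Cd3e stayed at or below 0.351 CPM in these libraries. Cd5, an inhibitory receptor of T cells, had the other unadjusted p under 0.05, with a log2 fold change of -0.74 (SE 0.29, edgeR adjusted p = 0.347).

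The pituitary library labelled KO 50 had higher levels of leukocyte genes than the other 9. Ptprc was at 9.26, 7.78, 7.69, 31.6 and 11.2 CPM in the labelled KO libraries and 11.1, 8.46, 8.43, 8.04 and 9.19 CPM in those labelled WT, and Coro1a at 18.8 CPM in KO 50 against 2.81 to 5.21 CPM. Ccl19 was at 7.28 against at most 2.10 CPM. The general leukocyte sum was 59.1 CPM there and 12.7 to 19.1 CPM in the other 9. The T cell sum was 22.6 CPM against 14.7 to 17.8 CPM. The B cell sum, at 30.0 CPM, was within their 23.8 to 32.9 CPM. Myeloid genes were also higher: the 9 macrophage genes summed to 228 CPM in KO 50 and 78.8 to 109.8 CPM in the other 9. Lyz2 was at 70.8 against at most 19.2 CPM. The 7 red cell and platelet genes summed to 2438 CPM in KO 50 and 1108 to 1989.7 CPM in the other 9. The part of these other cell types in the level of Ptprc was not tested. The median log2 fold change of the 16 members tested was 0.31, beside 0.0036 over all genes, and -0.07 without this library. Whether the labelled KO effect differed between the tissues was tested in the fit of all 20 libraries: no member passed, nor did any gene (0 of 17731, 0.0%; 427 with an unadjusted p under 0.05; DESeq2 called 1, which was not a member).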

How the data were processed

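Total poly(A) RNA of 20 libraries was sequenced on an Illumina instrument, per the labels. Reads were aligned and counted by the authors with STAR 2.4.0 and featureCounts 1.4.4, per the submitters' processing notes, which name the builds mm10 and GRCm38. The deposited values are raw counts per gene over exons of a UCSC mm10 annotation. Per the file headers, primary alignments were counted, reads overlapping several genes were counted for each, and no strand option was set, so overlapping and near-identical genes cannot be kept apart. No deposited value was normalized.

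From these counts, CPM were computed on TMM-scaled library sizes over all 20 libraries. Genotypes were compared within a tissue by edgeR's quasi-likelihood test (edgeR 4.0.16, R 4.3.3, filterByExpr, robust), with Benjamini-Hochberg adjustment over all genes tested and a threshold of 0.05. The tissue difference and the interaction came from a 4-group fit over 20 libraries. Each SE given is the absolute log2 difference divided by the square root of the test's F statistic. It is therefore not a measure of spread separate from the test. DESeq2 1.42.0 was an alternative, with other scalings, filters, ages and left-out libraries. The fit was tested on simulated counts with 200 changed genes. Within groups no 2 libraries agreed to within counting noise (smallest reduced chi-square 4.70).

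The 32 members and all other lists were chosen with earlier results of these data known. Levels are given for the members, and full statistics for 8 of them set by name (Cd79a, Cr2, Cd3e, Cd8a, Ccr7, Ccl19, Cxcl13 and Ptprc) and for members near or past the threshold. Of the other lists, genes set by name are given, and the others named were chosen after their values were seen. Promoter letters are from RefSeq on GRCm38.p6. No set test or score test over the members was run.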

Additional observations from a re-analysis of the deposited data

Results flagged for a closer look

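Of 48 groups of 5 libraries examined for a library far from the rest by Dixon's criterion, 7 had one. The criterion flags about 1 in 20 independent groups by chance. These groups share libraries, and the sums contain genes also examined alone, so the count cannot be set against that rate. All 7 were in the pituitary, and in each the library that stood apart was the highest of its group.

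Labelled KO 50 accounted for 4. Its Ptprc level was 31.6 CPM against 11.2 CPM in the next highest labelled KO library, and its Ccl19 level 7.28 CPM against 2.02 CPM. Its summed level of the 32 genes was 125.6 CPM against 78.4 CPM, and that of the 13 T cell genes was 22.6 CPM against 17.8 CPM. The iWAT library of the same number was the lowest of 10 for all 32 genes. The 9 macrophage genes summed to 228 CPM in the pituitary library labelled KO 50 and 78.8 to 109.8 CPM in the other 9. Their part was not tested.

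The other 3 were B cell genes. Cd79a was at 2.49 CPM in labelled KO 66 against 1.22 CPM in the next library, and at 3.68 CPM in labelled WT 56 against 1.76 CPM. Cr2 was at 19.9 CPM in labelled KO 66 against 15.7 CPM.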

How the results depend on the processing

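Under every alternative run, 0 genes and 0 members were called between labelled genotypes in iWAT. Of the 16 members past the low-count filter in the pituitary, 16 were called higher in iWAT, with a median log2 difference of 5.06 to 5.55; the other 16 are in that fit only through iWAT and their calls show nothing about stability. Between tissues 13461 to 16788 genes were called in either direction (14976 in the fit as reported). With libraries left out in turn, the members' median log2 fold change in iWAT ran from -0.36 to 0.19.

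In the pituitary DESeq2 called 288 genes and 1 member (Lck), against 90 genes and 0 members by edgeR. With age as a covariate 44 genes were called, with 21 weeks only 5, and in 1 fit over 20 libraries 1. Leaving out libraries gave 50 to 112 genes, with 55 without labelled KO 32, 50 without labelled WT 49 and 51 without labelled WT 56. The members' median there was -0.068 to 0.35 with libraries left out and 0.0082 with 21 weeks only. The interaction had 0 calls by edgeR and 1 by DESeq2. The cause of these changes was not tested.

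Single genes in iWAT changed sign without passing the threshold. With 21 weeks only the log2 fold change was 0.33 for Cd79a, 0.22 for Cr2, 0.32 for Cd8a, 0.16 for Cxcl13 and 0.30 for Ptprc, and with age as a covariate it was -0.54 for Cd3e and -0.56 for Ccr7. Leaving out each replicate gave -0.59 to 0.089 for Cd79a, -0.27 to 0.27 for Cr2, -0.24 to 0.32 for Cd3e, -0.40 to 0.26 for Cd8a, -0.22 to 0.34 for Ccr7, -0.33 to 0.22 for Ccl19, -0.15 to 0.083 for Cxcl13 and -0.32 to 0.18 for Ptprc.

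Same-numbered libraries of the 2 tissues did not deviate together: the correlation of their deviations was -0.059 to 0.095 over 10 pairs, and 0 correlated best with their own number. With the number as a replicate block 14880 genes were called between tissues, with 16 of the 16 members past the pituitary filter, and 0 in the interaction.

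At these depths 8 of 13 T cell genes did not pass the low-count filter in the pituitary, where genotype differences in Cd3d or Cd3e were not detectable.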
